A study of Mus musculus with 72 samples.

Results

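The comparison described here asks how the liver's response to the cachexia-inducing tumour 8025 differs from its response to the weight-stable tumour MC38, in RNA of whole liver nuclei. It uses 16 of the 72 libraries of the study, in 4 groups of 4 animals. All animals were C57BL/6N mice that carried the transgenes CAG-Sun1/sfGFP and Albumin-Cre (Hep-INTACT mice). Albumin-Cre acts in hepatocytes, where it releases a fluorescent tag of the nuclear envelope by which hepatocyte nuclei can be captured on beads; whole liver nuclei were not captured and hold the nuclei of all liver cells. The first cohort held PBS controls and animals implanted with 8025 cells, the other PBS controls and animals implanted with MC38 cells, both lines being syngeneic; MC38 is a mouse colon carcinoma line. Livers of 8025 animals were collected once body weight had dropped by more than 10%, at zeitgeber time 9 h, that is 9 h after lights on. The labels give a separate animal number for every library and neither sex nor age. The quantity followed is the difference of effects: the log2 fold of 8025 cachexia over the PBS animals of its cohort, minus the log2 fold of MC38 over the PBS animals of its cohort. A positive value means that a gene rose more, or fell less, under 8025 than under MC38.

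Besides hepatocytes the liver holds sinusoidal endothelial cells that line its capillaries, Kupffer cells (its resident macrophages), vitamin A-storing stellate cells that can make matrix, the cholangiocytes of the bile ducts, and lymphocytes. In systemic inflammation circulating monocytes and neutrophils enter the sinusoids by integrins and selectins, and cytokines of the IL-6 and IL-1 families act on liver cells through receptors that signal by STAT3 and NF-kB. Cachexia is a wasting of muscle and fat that accompanies some tumours, and it often goes with such an inflammatory state of the liver.

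Total counts ran from 12.2 M (8025 cachexia animal 4) to 30.3 M (8025 cachexia animal 3). Replicate libraries differed by more than counting error in all 24 pairs (chi-square per degree of freedom 22.7 to 134.7). A set of 5 genes that collect rRNA-like reads took 0.944% (8025 PBS animal 1) to 4.58% of the counts. The summed level of 20 hepatocyte markers was 16478 to 23347 CPM (counts scaled to the library size) in 8025 PBS, 15047 to 21168 in 8025 cachexia, 16946 to 25896 in MC38 PBS and 16632 to 27029 in MC38 animals, so these libraries are hepatocyte-rich in every group. Library number series coincide with the cohorts, so a direct comparison of both tumours cannot be told apart from a comparison of the cohorts. Each tumour effect was therefore taken within its cohort. In bulk nuclei, a change in the number of cells of a type and a change in RNA per cell cannot be told apart.

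The 8025 and MC38 effects differed in 1861 of 13738 genes tested (13.5%), of which 1042 were higher (7.58%) and 819 lower (5.96%) under 8025 (edgeR quasi-likelihood test, Benjamini-Hochberg adjusted p under 0.05, here "called"). The median difference over all genes was 0.00 on the log2 scale. Genes whose RNA lies mainly outside hepatocytes were defined in 8 PBS-treated BALB/c animals that take no part in the comparison: 1587 tested genes were called and at least 4-fold lower in hepatocyte than in whole liver nuclei there. Of these non-hepatocyte genes 365 (23%) were called higher and 77 (4.85%) lower under 8025, with a median difference of 0.39. Among the other 12151 genes 677 (5.57%) were higher and 742 (6.11%) lower, with a median of -0.03. All 4 cachexia animals lay above the other 12 animals in 542 of the 1587 non-hepatocyte genes (34.2%, against 10.5% of all genes), and below them in 55 (3.47%, against 7.5%). The filter on low counts kept 27 of the 1587 genes only because of the cachexia animals, and 5 of the 365 called higher were among those. The fit with only these 16 libraries, which estimates the spread from fewer animals, called 228 of the non-hepatocyte genes higher.

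The components of the difference were unequal. Taken alone, 8025 cachexia against PBS gave 2569 higher and 2457 lower genes (36.6%), among the non-hepatocyte genes 734 higher and 156 lower with a median of 0.57. MC38 against PBS gave 0 called genes of 13738 with edgeR (0%), with 790 genes at an unadjusted p under 0.05, of which 243 were non-hepatocyte genes, and a median of 0.17 over the non-hepatocyte genes. DESeq2 called 13 genes higher and 1 lower under MC38, among them Fgl1, which encodes a secreted fibrinogen-like protein (log2 3.14 ± 0.60, SE), and Nampt, an enzyme of NAD synthesis (1.17 ± 0.23). Without MC38 animal 1 edgeR called 10 genes higher against PBS, including the G-CSF receptor gene Csf3r (0.98 ± 0.20; adjusted p = 0.0398). Both PBS groups, which enter the difference as its controls, differed from each other in 64 genes (0.466%), 35 higher and 29 lower in 8025 PBS. Without 8025 PBS animal 3 this count was 484 higher and 492 lower, and without 8025 PBS animal 2 it was 101 and 59.

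**Figure D1:**
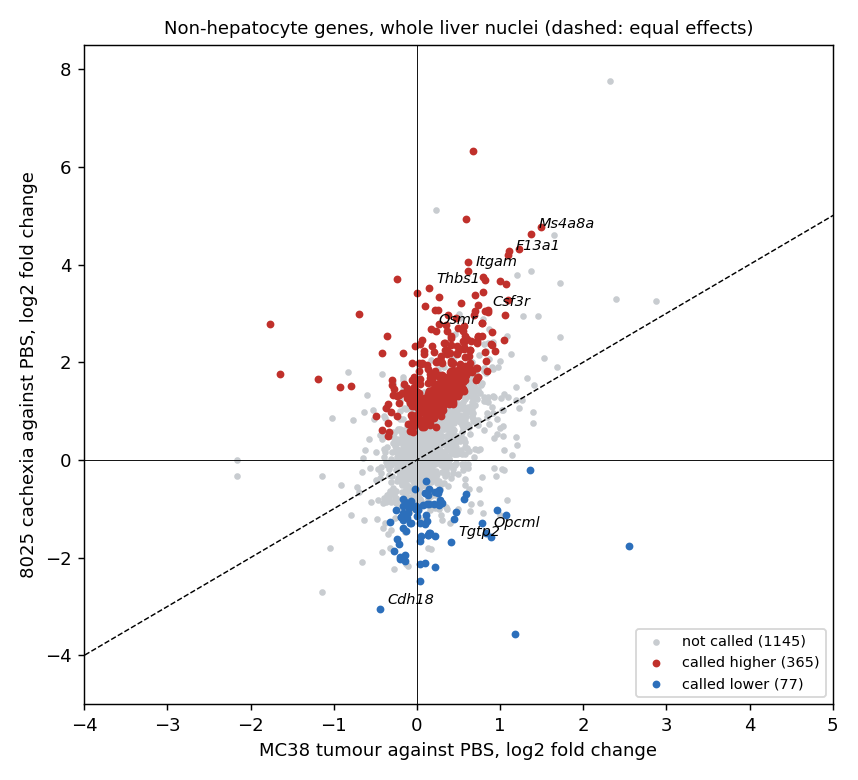
Effect of 8025 cachexia (log2 fold over PBS, vertical axis) against effect of MC38 (log2 fold over PBS, horizontal axis) for the 1587 non-hepatocyte genes in whole liver nuclei, 4 animals a group. Genes called higher (365) lie above the dashed line of equal effects, genes called lower (77) below it, and 1145 genes were not called.

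Genes of monocytes and other recruited myeloid cells rose more under 8025 in 10 of 18 tested cases. Itgam, F13a1 and Thbs1 of this list were among the 10 named non-hepatocyte genes with the largest differences. Of 18 tested markers on that list, 10 were called higher and none lower (all genes 7.58% and 5.96%), with a median difference of 1.30 on the log2 scale. The definition of a non-hepatocyte gene was met by 10 of the 18, a different set, as the called gene Vcan did not meet it. Alone, 8025 cachexia against PBS raised 15 of the 18. Itgam, the CD11b integrin chain of monocytes and neutrophils (chr7:128062640-128118491, mm10), stood at 1.63, 1.56, 1.85 and 1.71 CPM in the 8025 PBS animals and at 19.4, 26.5, 29.3 and 23.2 in the cachexia animals. It stood at 2.28, 1.23, 1.57 and 0.941 in MC38 PBS and 1.69, 2.62, 2.69 and 2.14 in MC38 animals. Every cachexia animal was far above the other 12, and the MC38 animals overlapped their PBS group. The difference of effects was 3.24 ± 0.34 on the log2 scale (SE; 9.48-fold; adjusted p = 2.95e-07). The partner chain Itgb2 (1.25 ± 0.26; adjusted p = 0.00181) and the related chain Itgal (1.28 ± 0.26; adjusted p = 0.00112) also rose more under 8025.

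Ccr2, the chemokine receptor that guides monocytes out of the bone marrow (chr9:124102183-124109140), was at 1.44, 0.7801, 1.49 and 1.52 CPM in 8025 PBS, 7.17, 12.2, 15.7 and 7.77 in cachexia, 0.862, 0.443, 0.743 and 0.579 in MC38 PBS and 1.37, 1.67, 0.763 and 1.07 in MC38 animals. The lowest cachexia animal was more than 4 times the highest of the others, and the MC38 groups overlapped. The effects differed by 2.17 ± 0.47 (adjusted p = 0.00215). F13a1, the coagulation factor XIII chain carried by monocytes and macrophages, was at 2.22, 0.936, 1.35 and 0.975 CPM in 8025 PBS, 27.3, 17.7, 42.4 and 13.3 in cachexia, 1.34, 0.541, 1.27 and 1.16 in MC38 PBS and 2.82, 1.67, 1.53 and 3.299 in MC38 animals. Here the MC38 animals also lay above their PBS group without overlap, with an MC38 estimate of 1.09 ± 0.35 that was not called (adjusted p = 0.4997), and the difference of effects was 3.10 ± 0.49 (adjusted p = 8.96e-05). Thbs1, a matricellular protein gene of this list, differed by 3.37 ± 0.55. Genes at this end that are not on the list were the chemokine Ccl6 (3.09 ± 0.59) and the membrane-spanning Ms4a family genes Ms4a8a (3.26 ± 0.59) and Ms4a4a (3.17 ± 0.72). Each of these genes had an adjusted p between 0.000133 and 0.00339. Lyz2 (lysozyme) and Plac8 changed less, by 1.44 ± 0.37 and 1.19 ± 0.30 (adjusted p = 0.00897 and 0.00792).

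Summed over its tested genes, the level of the neutrophil list was 11.6 to 15.5 CPM in 8025 PBS, 89.1 to 108 in cachexia, 11.3 to 19.1 in MC38 PBS and 16.3 to 24.9 in MC38 animals. Of 25 listed genes 17 were tested, and 10 of these met the definition of a non-hepatocyte gene. Of the 17, 7 passed the filter only because of the cachexia animals, and 6 were called higher. The summed level and the call count are therefore given only as a description. The called genes that passed without the cachexia animals include Csf3r, the G-CSF receptor (chr4:126024659-126044975), at 3.14, 4.91, 5.77 and 6.52 CPM in 8025 PBS and 40.1, 53.9, 36.1 and 38.8 in cachexia. It was at 5.91, 3.98, 4.502 and 3.76 in MC38 PBS and 4.99, 9.599, 9.69 and 7.67 in MC38 animals, 3 of which exceeded all of their PBS animals. The cachexia animals lay above all others, with a difference of effects of 2.22 ± 0.29 (adjusted p = 9.14e-06). Il1b, the inflammasome-processed cytokine, was at 8.85 to 11.1 CPM in cachexia against 0.362 to 3.73 in the other 12 animals (2.95 ± 0.58; adjusted p = 0.000863; 2.28 without MC38 PBS animal 1), and the formyl peptide receptor Fpr1 at 2.52 to 3.497 against 0.804 to 1.79 (1.2368 ± 0.34; adjusted p = 0.0142).

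The granule and calprotectin genes are best seen as raw counts summed over 4 animals. S100a9 had 8 counts in 8025 PBS, 268 in cachexia, 7 in MC38 PBS and 20 in MC38 animals, and S100a8 had 2, 63, 4 and 10. Ltf (lactoferrin) had 1, 126, 0 and 2 counts in the same order, Mpo (myeloperoxidase) 0, 49, 0 and 0, and Prtn3 (proteinase 3) 2, 315, 1 and 4. Mmp8, a collagenase of neutrophil granules, had 1, 65, 3 and 3. The cachexia counts were the highest in each of these genes although 3 of the 4 cachexia libraries were no deeper than 17.1 M. Ly6g, a defining neutrophil surface gene, had only 2 counts, both in cachexia, so the list rests on its other members.

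**Figure D2:**
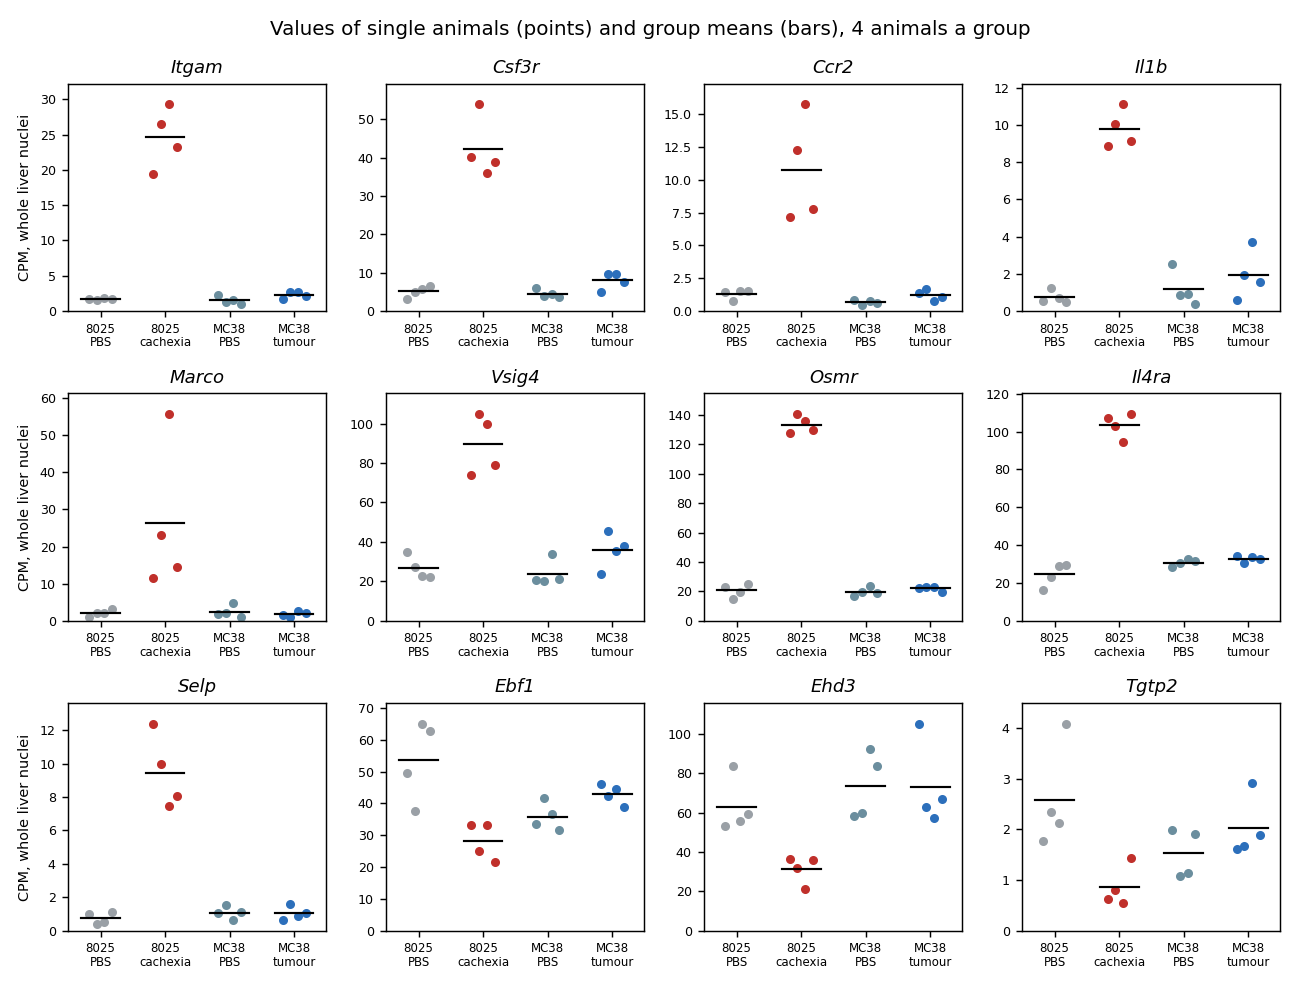
Level of 12 genes in each of the 16 animals (vertical axes, CPM in whole liver nuclei, linear from 0), by group, with bars at group means. In Itgam, Csf3r, Ccr2, Il1b, Marco, Vsig4, Osmr, Il4ra and Selp all 4 cachexia animals lie above the other 12, in Ehd3 all lie below, and in Ebf1 and Tgtp2 they lie low with overlap.

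Kupffer cell and macrophage markers rose more under 8025 in 14 of 24 tested genes, and 1 (Slc40a1, the iron exporter ferroportin) was lower, with a median difference of 1.14. The filter kept 1 of the 24 only because of the cachexia animals, and it is among the 14. The definition of a non-hepatocyte gene was also met by 14 of the 24, but not the same 14, as the called gene Marco did not meet it. The summed level of the list was 599 to 719 CPM in 8025 PBS, 1019.6 to 1456 in cachexia, 543 to 699 in MC38 PBS and 598 to 863 in MC38 animals. Alone, 8025 cachexia raised 20 of the 24 and MC38 none with edgeR, with a median MC38 estimate of 0.52. The 14 calls fell to 9 without 8025 PBS animal 1 and to 8 in the fit of only the 16 libraries. The call of Slc40a1 was lost without 8025 PBS animal 1, 8025 cachexia animal 4, MC38 PBS animal 1 or MC38 animal 2 (highest adjusted p 0.0747).

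Of 6 named receptors of resident Kupffer cells, Vsig4, Csf1r, Clec4f and Cd163 were called higher and Timd4 and Adgre1 were not. Vsig4, the complement receptor of Kupffer cells, was at 35.1, 27.5, 22.5 and 22.3 CPM in 8025 PBS, 73.8, 105, 100.001 and 79.02 in cachexia, 20.6, 20.01, 33.8 and 21.4 in MC38 PBS and 23.7, 45.5, 35.6 and 37.9 in MC38 animals. The cachexia animals lay above all others, and 3 of the 4 MC38 animals lay above all of their PBS animals. In Vsig4 the effects differed by 1.16 ± 0.27 (2.23-fold; adjusted p = 0.004797). Csf1r, the receptor for macrophage colony-stimulating factor, differed by 1.26 ± 0.23 (adjusted p = 0.000403), the lectin Clec4f by 0.89 ± 0.25 (adjusted p = 0.0144) and the haemoglobin scavenger receptor Cd163 by 1.84 ± 0.47 (adjusted p = 0.00924). The call of Clec4f was lost in the fit of only the 16 libraries (adjusted p = 0.0526). Timd4 and Adgre1 (F4/80), which also mark resident macrophages, were not called, at 0.39 ± 0.28 (adjusted p = 0.378) and 0.61 ± 0.28 (adjusted p = 0.152), although 8025 cachexia alone raised both (0.99 ± 0.20 and 1.14 ± 0.20). The complement component gene C1qb differed by 1.05 ± 0.27 (adjusted p = 0.00952) and kept its call in all 22 alternatives. The list members C1qa, C1qc and Cd5l were called higher too. They kept their calls in only 11, 18 and 10 of 22 alternatives (highest adjusted p 0.112, 0.0805 and 0.104).

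Marco, a scavenger receptor for bacteria and particles, was at 0.9804, 2.03, 2.14 and 3.17 CPM in 8025 PBS, 11.7, 23.2, 55.6 and 14.4 in cachexia, 1.81, 2.16, 4.85 and 1.05 in MC38 PBS and 1.69, 1.06, 2.56 and 2.14 in MC38 animals. Cachexia animal 3 was the highest, and the lowest cachexia animal still exceeded all others. The effects on Marco differed by 4.04 ± 0.79 (16.4-fold; adjusted p = 0.000823; 3.38 without cachexia animal 3). Trem2, a lipid-sensing receptor of macrophages, had 11 counts in 8025 PBS, 218 in cachexia, 19 in MC38 PBS and 13 in MC38 animals over 4 animals each (3.93 ± 0.85; adjusted p = 0.00213). Clec4n (dectin-2) and Ctss (cathepsin S) differed by 1.88 ± 0.38 and 1.17 ± 0.24 (adjusted p = 0.00121 and 0.00106).

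Receptors for inflammatory cytokines were among the genes that rose more under 8025. On the list of cytokines, interleukins and their receptors 11 of 47 tested genes were called higher and 4 lower (2 without 8025 PBS animal 2 or MC38 PBS animal 1), with a median of 0.62. The definition of a non-hepatocyte gene was met by 15 of the 47. Osmr, the receptor chain for oncostatin M (chr15:6813577-6874313), was at 23.3, 14.98, 19.9 and 25.2 CPM in 8025 PBS, 127, 141, 136 and 129.8 in cachexia, 16.6, 19.3, 23.5 and 19.1 in MC38 PBS and 22.5, 23.2, 22.98 and 19.6 in MC38 animals. The 4 cachexia animals were close to each other and far above the rest, and MC38 and its PBS group overlapped. The difference of effects was 2.51 ± 0.31 (5.68-fold; adjusted p = 3.25e-06). Il4ra, the interleukin-4 receptor chain (chr7:125552282-125579474), was at 16.3, 23.01, 29.1 and 29.6, 107, 103, 94.5 and 109, 28.3, 30.5, 32.7 and 31.5 and 34.3, 30.5, 33.7 and 32.8 CPM in the same order of groups. It too separated the cachexia animals from all others (1.98 ± 0.21; adjusted p = 2.95e-07). Il4ra did not meet the definition of a non-hepatocyte gene. Neither did Marco, Selp, Vcan and Il1r2.

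The common beta chain Csf2rb, which serves the GM-CSF, IL-3 and IL-5 receptors, was at 52.3 to 86.6 CPM in cachexia and 4.34 to 12.5 in the other 12 animals (2.4018 ± 0.34; adjusted p = 2.22e-05). The interleukin-17 receptor Il17ra differed by 1.63 ± 0.27 (adjusted p = 0.000134), the TNF receptor Tnfrsf1a by 1.21 ± 0.23 (adjusted p = 0.000634) and the alarmin Il33 by 1.75 ± 0.39 (adjusted p = 0.00273). Il1r1, the signalling IL-1 receptor, was at 2795, 1832, 2034 and 2774 CPM in cachexia and 386, 399, 1964 and 613 in MC38 PBS, where animal 3 reached the cachexia range, so the groups overlapped (2.97 ± 0.65; adjusted p = 0.00243; 2.12 without that animal). The decoy receptor Il1r2 was at 7.12 to 17.8 against 0 to 0.412 CPM. Lower under 8025 were Il15ra (-0.77 ± 0.21; adjusted p = 0.0139), the IL-1 receptor accessory chain Il1rap (-1.13 ± 0.33; adjusted p = 0.0212, at most 0.0547 and lost without 8025 PBS animals 1 or 2, MC38 PBS animal 1 or MC38 animal 4), Lifr and the death ligand Tnfsf10, better known as TRAIL (-1.24 ± 0.34; adjusted p = 0.01398), which was at 3.47 to 6.48 CPM in cachexia and 8.37 to 13.4 elsewhere.

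Of 29 NF-kB signalling and target genes 11 were higher (7 in the fit of only the 16 libraries) and 1 lower (Sod2, mitochondrial superoxide dismutase, -0.46 ± 0.16; adjusted p = 0.04996, lost in 16 of 22 alternatives), with a median of 0.76. Of the 29, 7 were non-hepatocyte genes. Irak3, an inhibitor of IL-1 and Toll-like receptor signalling, was at 25.5 to 31.6 CPM in cachexia and 5.93 to 11.2 elsewhere (1.47 ± 0.24; adjusted p = 0.000128). Of 24 genes of IL-6, JAK and STAT3 signalling 6 were higher and 2 lower, among them Lifr, with a median of 0.45. Only 1 of these 24 was a non-hepatocyte gene. Lifr, the receptor for leukaemia inhibitory factor, differed by -1.75 ± 0.59 (adjusted p = 0.0434), and its call was lost in 10 of 22 alternatives, among them without any single cachexia animal (highest adjusted p 0.183). Socs3, a feedback inhibitor induced by STAT3, was at 43.1, 40.8, 33.1 and 64.6 CPM in cachexia and 1.895 to 9.201 elsewhere (2.87 ± 0.53; adjusted p = 0.000496), and Stat3 differed by 0.93 ± 0.21 (adjusted p = 0.00377). Among 31 chemokine genes and receptors 5 were higher, among them Ccl6, Cxcl1, Ccr2 and Ccr3, and 1 lower (Cxcl9), with a median of 0.54. The call of Ccr3, an eotaxin receptor at 0.131 CPM or less in the 8025 PBS animals, was lost without MC38 PBS animal 4 (adjusted p = 0.257). Cxcl1, a neutrophil attractant, was at 93.3, 118, 63.7 and 161 CPM in cachexia and 5.02 to 18.5 elsewhere (2.42 ± 0.60; adjusted p = 0.00695). Cxcl9, a ligand for T cell receptors of the CXCR3 kind that interferon gamma induces, was at 0.151 to 0.392 CPM in cachexia and 0.437 to 3.17 elsewhere (-2.73 ± 0.61; adjusted p = 0.00312).

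Hepatocyte nuclei of the same 16 animals were counted too, and differ from whole liver nuclei in holding fewer other cells. There 957 of 13274 genes were called (7.21%), 556 higher (4.19%) and 401 lower (3.02%). Of the non-hepatocyte genes 1263 could be tested, and 103 were higher and 9 lower, with a median of 0.52. Of the 409 non-hepatocyte genes called in whole liver and tested here, 403 had the same sign (98.5%). Over all genes called in whole liver it was 1789 of 1806 (99.1%). Both fractions share their animals. Itgam was at 3.001 to 4.81 CPM in the hepatocyte nuclei of cachexia animals, below 19.4 to 29.3 in their whole liver nuclei, and at 0 to 0.485 in those of 8025 PBS animals. Its difference of effects was 2.86 ± 0.80 in hepatocyte nuclei (adjusted p = 0.0255). How much RNA of other cells the captured nuclei carry was not tested.

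For Osmr the fractions were closer in cachexia than in the other groups. In hepatocyte nuclei it was at 3.26, 3.14, 3.77 and 3.76 CPM in 8025 PBS and 93.6, 118, 124 and 107 in cachexia, and at 0.863, 2.401, 2.86 and 1.28 in MC38 PBS and 2.16, 2.04, 2.54 and 2.48 in MC38 animals. The cachexia animals thus had nearly the same CPM in both fractions, while the other animals were several-fold lower in hepatocyte than in whole liver nuclei. The difference of effects was 4.69 ± 0.57 in hepatocyte nuclei (adjusted p = 1.16e-05), against 2.51 in whole liver. The test of whole liver minus hepatocyte nuclei called 0 of 14054 genes with edgeR (0%), with 245 at an unadjusted p under 0.05, Osmr at -2.20 ± 0.63 (adjusted p = 1.0). That fit held no term for the animal, so its p-values leave out that both fractions come from the same animals. With the animal as a block over both fractions the test called 4 genes higher and 7 lower, and Osmr was among the 7 (-2.13 ± 0.36; adjusted p = 0.00607). Col8a1, a network-forming collagen, and Adamts2, which trims procollagen, had the same order without such a call: 1.22 in whole liver and 3.92 in hepatocyte nuclei for Col8a1, and 1.90 and 3.60 for Adamts2 (adjusted p of the difference between fractions 0.334 and 1.0 without the block).

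**Figure D3:**
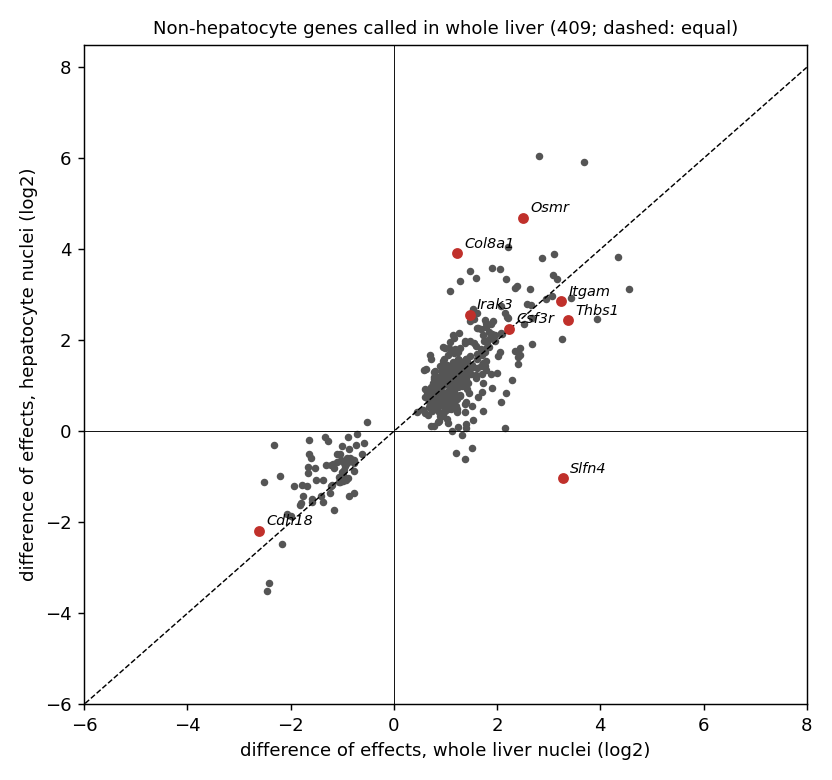
Difference of effects (log2) in whole liver nuclei (horizontal axis) against hepatocyte nuclei (vertical axis) for the 409 non-hepatocyte genes called in whole liver and tested in both, with a dashed line of equality. The fractions come from the same animals, and Osmr lies above the line at 2.51 and 4.69.

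Adhesion molecules of vessels and leukocytes were called higher in 9 of 27 genes and lower in none, with a median of 0.69. The fit of only the 16 libraries called 5. Of the 27, 17 were non-hepatocyte genes, and Selp was not among these. Selp encodes P-selectin, which activated endothelium and platelets display to catch leukocytes (chr1:164115264-164150026). It was at 0.9804, 0.3901, 0.498 and 1.097 CPM in 8025 PBS, 12.4, 9.99, 7.45 and 8.07 in cachexia, 1.03, 1.52, 0.656 and 1.12 in MC38 PBS and 0.643, 1.62, 0.853 and 1.03 in MC38 animals. No cachexia animal was below 7.45, and no other animal exceeded 1.62. Between the tumours the effect on Selp differed by 3.68 ± 0.47 (12.8-fold; adjusted p = 9.14e-06), and the MC38 estimate was -0.04 ± 0.34. Icam1, the ligand of the Itgam and Itgal integrins, was at 18.1 to 32.2 against 5.29 to 12.9 CPM (1.32 ± 0.28; adjusted p = 0.002197).

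The start regions of Selp and Marco, members called higher whose cachexia animals all lay above the other 12, are shown because both hold a match to the NF-kB letters, GGGA and CC around 4 free bases (either strand), in the 250 bases before the start. They are from RefSeq (GRCm38.p6, the assembly behind mm10), 5′ to 3′ on the gene's strand, Selp at chr1:164115014-164115263 on the plus strand and Marco at chr1:120505025-120505274 on the minus strand, with the match in capitals.
Selp: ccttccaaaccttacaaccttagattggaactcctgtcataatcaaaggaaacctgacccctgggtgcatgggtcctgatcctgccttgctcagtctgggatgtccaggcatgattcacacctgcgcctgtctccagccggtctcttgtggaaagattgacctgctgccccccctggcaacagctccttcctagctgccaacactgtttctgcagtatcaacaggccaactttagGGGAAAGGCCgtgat
Marco: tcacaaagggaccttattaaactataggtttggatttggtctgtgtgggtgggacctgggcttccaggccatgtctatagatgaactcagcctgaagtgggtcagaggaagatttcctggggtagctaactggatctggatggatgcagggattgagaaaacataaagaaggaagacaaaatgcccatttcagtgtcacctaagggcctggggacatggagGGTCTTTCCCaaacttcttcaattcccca
The Selp match GGGAAAGGCC begins 15 bases before the start, and the Marco match GGTCTTTCCC, which reads as the letters on the other strand, begins 29 bases before it. The letters were found in 20.7% of all 32851 promoters of the table (250 bases before to 50 after the start). Of the 48 named genes called higher 38 have a promoter entry, and 13 of these hold the letters, as do 4 of 18 named genes called lower; over all gene symbols of the table the share is 22.9%. A match of letters is a description and says nothing of binding.

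Of 30 tested endothelial markers 3 were called higher and 1 lower, shares near those of all genes (7.58% and 5.96%), with a median of 0.11, and the summed level was 1641 to 1974 CPM in 8025 PBS, 1787 to 2029.7 in cachexia, 1606 to 2209 in MC38 PBS and 1884 to 2256 in MC38 animals, which overlap. Stab2, the hyaluronan receptor of sinusoidal endothelium, was at 467, 530.3, 382 and 379.5, 511, 567, 469.6 and 557, 551, 414, 536 and 541 and 584, 549, 489.8 and 523 CPM in the 4 groups in this order, with overlap throughout (0.19 ± 0.16; adjusted p = 0.455). Ehd3, a membrane-trafficking gene of sinusoidal endothelium (chr17:73804841-73832093), was at 53.1, 83.5, 55.9 and 59.1 CPM in 8025 PBS, 36.3, 32.03, 21.4 and 35.7 in cachexia, 58.4, 59.6, 92.2 and 83.7 in MC38 PBS and 105, 62.8, 57.4 and 67.003 in MC38 animals. All cachexia animals lay below the other 12. Its effects differed by -0.9964 ± 0.26 (adjusted p = 0.00928), and it was not called in the fit of only the 16 libraries (adjusted p = 0.0581). The 3 genes called higher were Clec4g, Pecam1 and Vwf, at 0.59, 0.44 and 0.88, and each lost its call in 10 or more of 22 alternatives (highest adjusted p 0.103, 0.126 and 0.103). At least 1 of these 3 calls was lost without any single animal other than cachexia animal 3, MC38 PBS animal 1 and MC38 animal 1. Of 46 genes of angiocrine and vascular signalling 1 was higher (Dkk3, 1.02 ± 0.31; adjusted p = 0.0256) and none lower, with a median of 0.04. The count lower was 2 without 8025 PBS animal 4 or MC38 PBS animal 3, and 1 without cachexia animal 3, 8025 PBS animal 3, MC38 PBS animal 2 or MC38 animal 1. The call of Dkk3 was lost without 8025 PBS animal 1, cachexia animal 1, or MC38 PBS animals 3 or 4 (highest adjusted p 0.0852).

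Of 30 stellate cell and fibroblast markers 3 were higher (Pdgfra, Pdgfrb and Loxl1) and 1 lower (Reln), with a median of 0.03. These shares were near those of all genes (7.58% and 5.96%). The count higher was 1 without cachexia animal 1, 8025 PBS animal 2 or MC38 animal 2, and 5 without 8025 PBS animal 3. Pdgfra, a receptor for platelet-derived growth factor on mesenchymal cells, was at 7.19, 6.94, 6.12 and 6.52 CPM in 8025 PBS, 15.6, 11.5, 10.6 and 14.9 in cachexia, 5.95, 6.097, 6.51 and 5.21 in MC38 PBS and 7.96, 5.804, 6.15 and 5.81 in MC38 animals. The cachexia animals were above all others (0.86 ± 0.20; adjusted p = 0.00423). The defining quiescence marker Lrat, which esterifies vitamin A, and the matrix proteoglycan Dcn were not called (-0.02 ± 0.51 and -0.11 ± 0.31; adjusted p = 0.987 and 0.853). Reln, a secreted glycoprotein of stellate cells, was at 76.4 to 137 CPM in cachexia and 132 to 256 elsewhere, and was called lower (-0.77 ± 0.23; adjusted p = 0.0258). Without 8025 PBS animal 1, cachexia animal 3, MC38 PBS animal 2 or MC38 animal 1 that call was lost (highest adjusted p 0.083000).

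Of 61 tested genes of collagens and the extracellular matrix 17 were called higher and 3 lower, with a median of 0.66. Of the 61, 36 were non-hepatocyte genes, and Vcan was not among these. Adamts2 was at 14.4, 17.6, 18.6 and 17.5 CPM in 8025 PBS, 85.05, 48.8, 53.97 and 76.8 in cachexia, 16.8, 13.9, 18.7 and 16.4 in MC38 PBS and 19.3, 17.1, 15.2 and 16.8 in MC38 animals. Cachexia animals were above all others without overlap (1.90 ± 0.26; adjusted p = 1.96e-05). Vcan, the proteoglycan versican, which monocytes also make, was at 16.9 to 33.4 CPM in cachexia and 0.5604 to 2.26 elsewhere (3.45 ± 0.51; adjusted p = 4.30e-05). Fn1, fibronectin, which hepatocytes also secrete, differed by 1.41 ± 0.29 (adjusted p = 0.00139) and Mmp14, a membrane-bound matrix protease, by 1.30 ± 0.24 (adjusted p = 0.000500). Basement membrane collagens diverged: Col4a2 was higher (0.82 ± 0.21; adjusted p = 0.00863), while Col4a3 was lower (-1.31 ± 0.35; adjusted p = 0.01297), at 1.44 to 2.18 CPM in cachexia and 3.05 to 6.08 elsewhere. Col4a4, whose product joins that of Col4a3 in a network, was lower too (-1.33 ± 0.37; adjusted p = 0.0154), as was Timp3, a matrix-bound protease inhibitor (-1.23 ± 0.32; adjusted p = 0.0104). The 17 calls fell to 11 without 8025 PBS animal 1, and 1 of the 17 passed the filter only because of the cachexia animals.

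Fibrillar collagens and bile duct genes varied among the cachexia animals. Col1a1 was at 26.2, 5.74, 43.2 and 4.599 CPM in cachexia animals 1 to 4, Col1a2 at 32.9, 11.99, 45.4 and 7.92 and Col3a1 at 71.9, 28.9, 132 and 19.0002. Animals 1 and 3 were high and animals 2 and 4 lay in or near the range of the other groups, which was 1.44 to 7.54 for Col1a1. Only Col1a2 of the 3 was called (1.61 ± 0.52; adjusted p = 0.03497), and it lost its call without 8025 PBS animals 1 or 2, cachexia animals 1 or 3, MC38 PBS animal 2 or MC38 animal 2 (highest adjusted p 0.116). Animals 1 and 3 were also above animals 2 and 4 in Spp1 (osteopontin), with 25.3, 8.05, 53.3 and 6.03 CPM, and in the Wnt antagonist Dkk2, with 12.4, 2.06, 9.14 and 0.829. Of 16 cholangiocyte markers 7 were called higher and none lower, with a median of 0.95, but only 1 of the 16 met the definition of a non-hepatocyte gene. All 7 were highest in cachexia animal 3; the calls fell to 3 without that animal, to 4 without MC38 PBS animal 4 and to 1 in the fit of only the 16 libraries. Krt7, a duct keratin, kept its call (2.41, 2.25, 3.31 and 0.9802 CPM in cachexia and 0.196 to 0.724 elsewhere; 2.14 ± 0.54; adjusted p = 0.00798). The chloride channel Cftr was at 5.77, 2.498, 12.5 and 0.905 CPM in cachexia and 0.167 to 1.96 elsewhere, so that animal 4 overlapped the other groups (2.80 ± 0.72; 1.99 without cachexia animal 3; adjusted p = 0.00897, 0.0815 in the fit of only the 16 libraries).

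Over all 365 non-hepatocyte genes called higher, cachexia animal 3 had the highest value in 190, animal 2 in 79, animal 4 in 58 and animal 1 in 38. Animal 3 is also the deepest library. Without it 310 non-hepatocyte genes were called higher and 61 lower, and its part in the result beyond that was not tested.

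**Figure D4:**
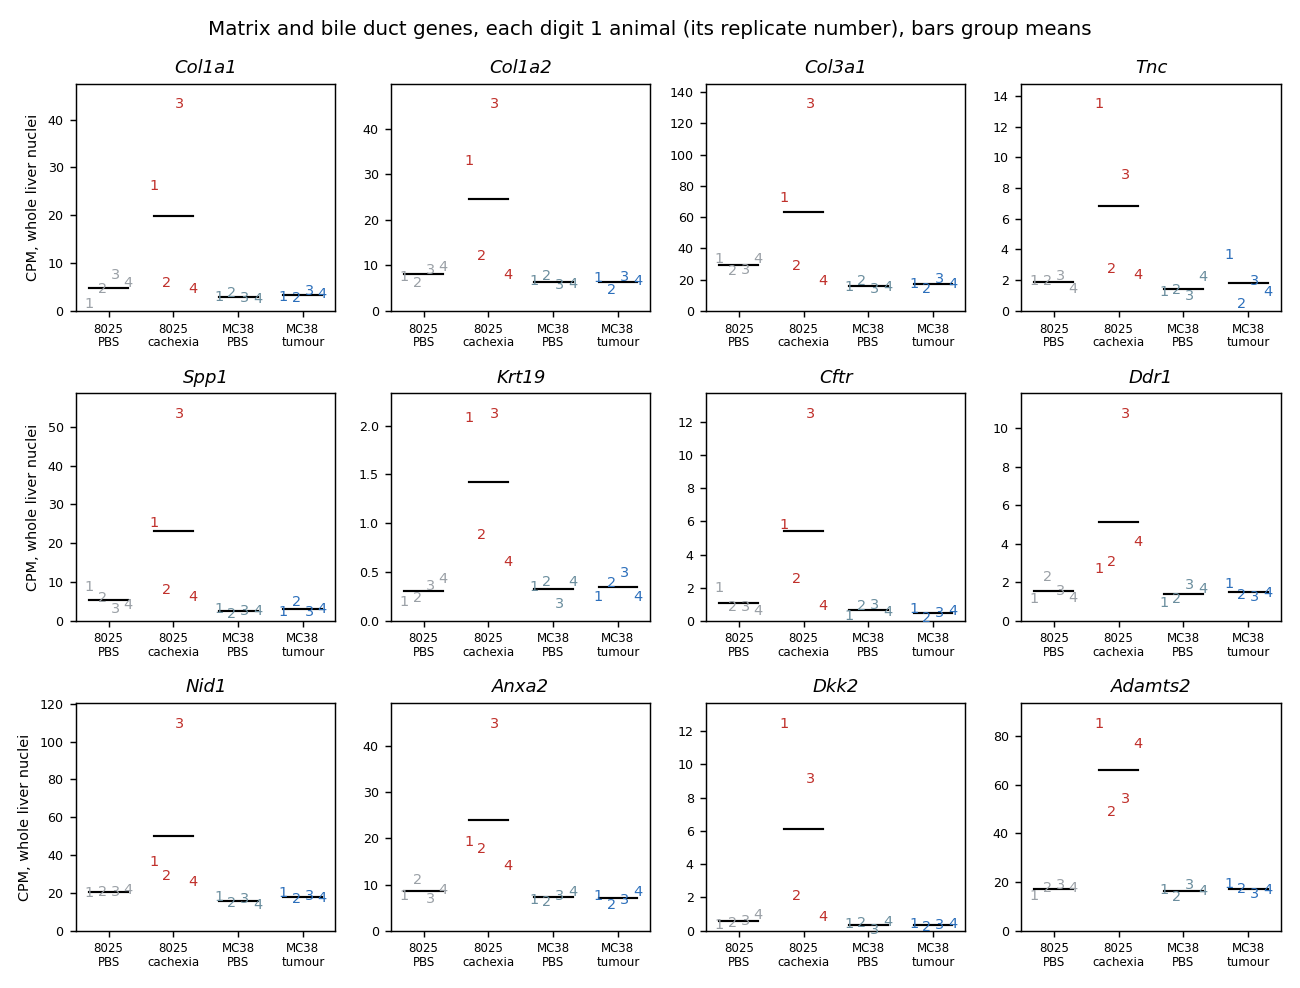
Level of 12 genes (vertical axes, CPM in whole liver nuclei, linear from 0) by group, with the 4 animals of each group drawn as their replicate numbers and bars at group means. In Col1a1, Col1a2, Col3a1, Spp1, Tnc, Krt19, Cftr and Dkk2 cachexia animals 1 and 3 lie above animals 2 and 4, in Ddr1, Nid1 and Anxa2 animal 3 is highest, and in Adamts2 all 4 lie together above the other groups.

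Of 22 genes of fibrinolysis, platelet adhesion and thrombosis 8 were higher and 1 lower (F3, tissue factor, -1.34 ± 0.39; adjusted p = 0.0198), with a median of 0.61. The call of F3 was lost without MC38 animal 2 and in the block fit (highest adjusted p 0.0713). Gas6, a vitamin K-dependent ligand of the TAM receptors, was at 15.2, 22.5, 19.5 and 27.7 CPM in 8025 PBS, 82.6, 145, 89.3 and 155 in cachexia, 27.03, 17.9, 19.7 and 16.8 in MC38 PBS and 20.03, 25.7, 29.1 and 19.8 in MC38 animals. The cachexia animals were above all others (2.25 ± 0.35; adjusted p = 7.61e-05). The urokinase receptor Plaur differed by 1.79 ± 0.40 (adjusted p = 0.002904). Of 33 scavenger and lectin receptors, a list that shares Marco with the macrophage list, 8 were higher and 2 lower (Scarf1, -0.74 ± 0.24, and Clec2d, -1.16 ± 0.33), with a median of 0.59 (5 higher in the fit of only the 16 libraries). Both lower calls were lost without cachexia animal 3 and in that fit; Scarf1 lost its call in 8 of 22 alternatives, also without 8025 PBS animals 2 or 3, MC38 PBS animals 1 or 3 or MC38 animal 3, and Clec2d also without 8025 PBS animal 1 or MC38 animal 2.

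A named non-hepatocyte gene outside these groups is Armcx4, an X-linked armadillo-repeat gene, at 47.1, 44.1, 27.5 and 51.7 CPM in cachexia and 1.72 to 4.18 elsewhere (3.44 ± 0.43; adjusted p = 4.06e-06). Apol10b and Slfn4, members of families with close copies whose reads may be shared, differed by 4.34 ± 1.03 and 3.28 ± 0.73 (adjusted p = 0.00501 and 0.00277); without 8025 PBS animal 4 that of Slfn4 was 5.11.

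The named non-hepatocyte genes with the largest differences toward lower values under 8025 were led by Cdh18, Lrrn3, Fcer2a, Lypd6, Opcml and Cdh19. Cdh18, a cadherin (chr15:23036463-23474418), was at 202, 68.8, 67.8 and 138 CPM in 8025 PBS, 16.5, 16.9, 7.48 and 17.04 in cachexia, 81.4, 91.5, 85.4 and 37.5 in MC38 PBS and 33.1, 90.9, 55.9 and 37.5 in MC38 animals. All cachexia animals were below the other 12, with animal 3 lowest (-2.61 ± 0.45; adjusted p = 0.000246). Opcml, a GPI-anchored cell adhesion gene, was at 3.59, 3.51, 2.705 and 2.99, 0.672, 1.19, 1.57 and 0.9802, 1.64, 1.38, 2.62 and 1.99 and 4.18, 3.85, 2.92 and 2.804 CPM in the same order of groups. Cachexia animals lay below and MC38 animals above their own PBS groups, with a difference of -2.32 ± 0.40 (adjusted p = 0.000198) to which 8025 contributed -1.49 and MC38 0.83. All 8025 PBS animals lay above all MC38 PBS animals, and the cachexia animals overlapped MC38 PBS. How far the difference rests on the unlike PBS groups was not tested. Lrrn3 (-2.52 ± 0.48), Lypd6 (-2.42 ± 0.58; -1.79 without 8025 PBS animal 1) and the cadherin Cdh19 (-2.21 ± 0.54) followed, with adjusted p from 0.000658 to 0.005803.

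Of 19 B and plasma cell markers none was higher and 3 were lower (Ebf1, Fcer2a and Cr2), with a median of -1.12. Over all genes 7.58% were higher and 5.96% lower. Estimates were positive in 4 of the 19, and 8025 cachexia alone gave 3 higher and 8 lower. The count lower was 0 with the replicate number as a block and without cachexia animal 4, and 1 without cachexia animal 3. It was 6 with DESeq2, and 7 without 8025 PBS animal 2 or in the fit of only the 16 libraries. The count higher was 1 with DESeq2 or RLE scaling, and without cachexia animals 2 or 4. It was also 1 without 8025 PBS animals 2, 3 or 4, MC38 PBS animal 4 or MC38 animal 4. Ebf1, the B lineage transcription factor, was at 49.7, 37.8, 64.98 and 62.7 CPM in 8025 PBS, 33.1, 25.2, 33.2 and 21.5 in cachexia, 33.5, 41.5, 36.8 and 31.7 in MC38 PBS and 46.2, 42.5, 44.5 and 38.8 in MC38 animals. The cachexia animals were below their own PBS group and overlapped MC38 PBS (-1.19 ± 0.35; adjusted p = 0.0213, and at most 0.0557 without cachexia animal 4 or with the block). Pax5, the B cell identity factor, was at 6.26 to 6.86 CPM in cachexia and 9.83 to 18.7 elsewhere, without overlap, but was not called (-1.43 ± 0.50; adjusted p = 0.0534). Fcer2a (CD23) and Cr2 (complement receptor 2), both of mature B cells, differed by -2.46 ± 0.75 and -1.99 ± 0.63 (adjusted p = 0.0266 and 0.0331). Both calls were lost without cachexia animal 3 or 4 and with the block; that of Fcer2a also without cachexia animal 1 or MC38 animal 3, and that of Cr2 without 8025 PBS animal 3, MC38 PBS animals 1 or 3 or MC38 animal 1 (highest adjusted p 0.0704 and 0.0707).

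Few interferon-induced genes were called. Of 46 tested genes none was called higher and 2 were lower, among them Igtp, with a median of -0.12; 1 gene was called higher without cachexia animals 1 or 2 or MC38 animal 2. Tgtp2, a GTPase that interferon gamma induces and a near copy of Tgtp1 with which it may share reads, was at 1.76, 2.34, 2.14 and 4.08 CPM in 8025 PBS, 0.616, 0.812, 0.551 and 1.43 in cachexia, 1.98, 1.08, 1.14 and 1.92 in MC38 PBS and 1.61, 1.67, 2.92 and 1.897 in MC38 animals. The cachexia animals were below their PBS group, and animal 4 overlapped MC38 PBS (-2.08 ± 0.47; adjusted p = 0.00354). Igtp, a related GTPase, differed by -1.41 ± 0.43 (adjusted p = 0.0267), and its call was lost without 8025 PBS animal 4, cachexia animal 2, MC38 PBS animal 3 or MC38 animal 2 (highest adjusted p 0.0945).

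The bases before the start of both GTPase genes are shown because each holds a STAT match (TTCNNNGAA) followed within a few bases by a match to the interferon response letters (GAAA, a pair of free bases and GAAA again). They are again from RefSeq (GRCm38.p6), 5′ to 3′ on the gene's strand, Tgtp2 at chr11:49064213-49064462 on the minus strand and Igtp at chr11:58199306-58199555 on the plus strand, with both matches in capitals.
Tgtp2: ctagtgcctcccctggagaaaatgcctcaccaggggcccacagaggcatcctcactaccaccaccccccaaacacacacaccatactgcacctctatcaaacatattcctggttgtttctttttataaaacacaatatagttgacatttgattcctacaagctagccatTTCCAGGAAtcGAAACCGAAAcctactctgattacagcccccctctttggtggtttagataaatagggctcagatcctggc
Igtp: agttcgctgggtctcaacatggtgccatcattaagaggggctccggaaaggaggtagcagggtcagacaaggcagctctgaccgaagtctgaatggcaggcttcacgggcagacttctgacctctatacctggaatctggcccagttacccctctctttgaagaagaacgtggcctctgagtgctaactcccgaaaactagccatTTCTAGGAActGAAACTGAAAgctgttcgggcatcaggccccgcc
In Tgtp2 the matches TTCCAGGAA and GAAACCGAAA begin 81 and 70 bases before the start, and in Igtp TTCTAGGAA and GAAACTGAAA begin 45 and 34 bases before it. The STAT letters occur in 8.30% and the interferon response letters in 3.44% of the 32851 promoters, on either strand. Among named genes with a promoter entry, 3 of 18 called lower and 2 of 38 called higher hold the STAT letters. For the interferon response letters these counts are 4 of 18 and 2 of 38. Over all gene symbols the shares are 9.55% for the STAT and 3.99% for the interferon response letters.

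Of 19 T and NK cell markers 1 was called, the co-stimulatory receptor Cd28, which was higher (5.99, 1.94, 6.64 and 2.49 CPM in cachexia and 0.344 to 1.14 elsewhere; 2.36 ± 0.59; adjusted p = 0.00723), and the list's median was -0.17. The defining T cell genes Cd3d, Cd8a and Cd8b1 had too few counts to be tested. Of 19 genes of MHC class I antigen processing none was called in either direction (median -0.06), while their summed level was 1012 to 1138 CPM in 8025 PBS, 806 to 962 in cachexia, 1065 to 1227 in MC38 PBS and 1059 to 1298 in MC38 animals. The cachexia animals were thus below the other 12 in this sum, although in none of the 19 genes did all of them lie below the other 12. Of 15 genes of MHC class II presentation 3 were higher (Ctss, Lgmn and Ifi30, which act in lysosomal antigen processing; median 0.26), a count of 5 without cachexia animals 1 or 4 or 8025 PBS animal 4. Their summed level was 92.8 to 159 CPM in 8025 PBS, 221 to 366 in cachexia, 91.1 to 103 in MC38 PBS and 108 to 149 in MC38 animals, the cachexia animals lying above the other 12, and 8025 cachexia alone raised 6 of the 15. Of sparsely measured cell types, 1 of 5 mast cell and eosinophil markers was higher (Ccr3), 2 of 3 platelet markers (P2ry12 and Vwf, neither kept in all alternatives), and 1 of 6 mesothelial markers (Upk1b, 2.58 ± 0.70; adjusted p = 0.0133, lost without MC38 PBS animal 1 and in the block fit; it passed the filter only because of the cachexia animals, so this is a description); of 6 erythroid markers 1 was lower (Alas2). Among 12 dendritic cell markers 1 was higher, Batf3 (1.51 ± 0.41; adjusted p = 0.0128), and 1 lower, Bst2, with a median of 0.55. Bst2 lost its call without cachexia animals 1, 2 or 3, 8025 PBS animals 2 or 4, MC38 PBS animals 1, 2 or 3, or MC38 animals 3 or 4 (highest adjusted p 0.112), and 3 of the list were higher without MC38 PBS animal 1 and 2 without cachexia animal 4, 8025 PBS animals 3 or 4 or MC38 animal 2.

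**Figure D5:**
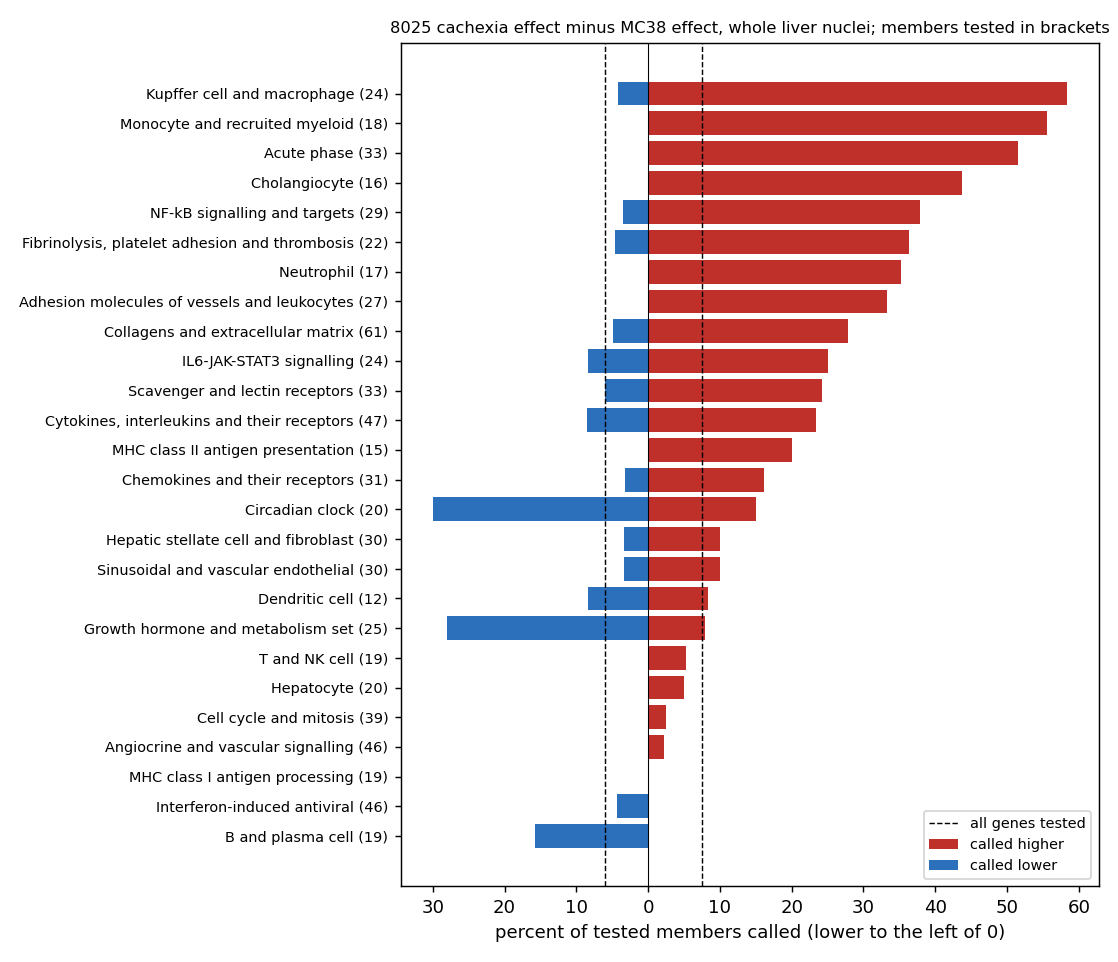
Percentage of tested members called higher or lower in the difference of effects, for 26 lists with at least 10 tested members, with dashed lines at the share of all 13738 genes (7.58% higher and 5.96% lower). Kupffer cell, monocyte and acute phase lists have the largest shares higher, and endothelial, stellate, T cell and MHC class I lists lie near or below the dashed lines in both directions.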

How the data were processed

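RNA of nuclei isolated from whole liver was extracted in Trizol and made into stranded libraries without poly-A selection, sequenced in pairs of 50 bases, per the labels' protocols. The authors deposited raw counts per gene, taken over the whole gene span with introns for 20105 genes, per the file headers. The submitters' processing notes name STAR 2.4.2a, DESeq2 1.24.0 and the build mm10; whether counting used strand is not given in the sources used here, so overlapping and antisense genes may share counts. Near copies may share counts too.

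Counts of all 36 whole liver libraries (9 groups) were fitted together with edgeR 4.0.16 in R 4.3.3 (limma 3.58.1), with filterByExpr by group, TMM scaling, a quasi-likelihood test and Benjamini-Hochberg adjustment over all genes tested. The difference of effects was the contrast of both cohorts' tumour against PBS differences, and standard errors were derived from the estimate and its F statistic. Levels in CPM use TMM-scaled library sizes. The non-hepatocyte genes and the comparison of fractions came from a joint fit of 72 libraries in 18 groups, without a term for the animal except where a block is named. The labels name a separate animal for each library number, and p-values measure the spread between these animals. Sequencing depth ranged from 12.2 M to 30.3 M counts.

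Genes named were the 10 with the largest differences at each end among called non-hepatocyte genes that averaged 1 CPM or more, the 4 at each end among all called genes averaging 5 CPM or more, and from each of 30 lists of cell type markers and pathways the pair of members with the smallest p and the member with the highest mean CPM, leaving out Y-linked genes, small RNA, pseudogenes and models without a proper name; further members were named after their values were seen, as were all small counts of called members. The members and lists were chosen with earlier results of these data known, and list counts are descriptions. The values of some genes are not reported here. The scripts were tested on simulated data. Alternatives were DESeq2 1.42.0, RLE scaling, no filter, the 16 libraries alone, the replicate number as a block, other definitions of non-hepatocyte genes, 5 genes with rRNA-like reads left out, and each animal left out; leaving out animals in the comparison of both PBS groups, and list counts under every alternative, were added after seeing the data. Promoter sequences come from RefSeq. Libraries of BALB/c mice serve only the shared spread and the definition of non-hepatocyte genes.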

Additional observations from a re-analysis of the deposited data

Results flagged for a closer look

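In 31 of 384 groups of 4 animals looked at for the named genes, 1 animal lay far from the other 3, by a gap of over 82.9% of the group's range. Chance flags about 1 in 20 groups if values are normally distributed, which CPM need not be, so the number of flags is only a description. The animals concerned most often were 8025 PBS animal 1 (6), MC38 animal 2 (5) and cachexia animal 3 (4). Values are CPM in whole liver nuclei. In the 8025 PBS group these were Angpt1 in animal 1 at 30.8 against 13.3 to 15.99 and Ccr3 in animal 1 at 0.131 against 0. Also in 8025 PBS were Cps1 in animal 1 at 8363 against 4984 to 5443, Cr2 in animal 3 at 1.92 against 1.33 to 1.37 and Csf1r in animal 1 at 18.4 against 28.2 to 30.1. The 8025 PBS group further held Cxcl12 in animal 4 at 288 against 119.9 to 149, Ms4a4a in animal 1 at 0.654 against 0.234 to 0.305 and Pola1 in animal 1 at 137 against 82.1 to 89.1. Other 8025 PBS values were Slfn4 in animal 4 at 0.549 against 0 to 0.0780. In the cachexia group these were Cdh18 in animal 3 at 7.48 against 16.5 to 17.0, F11r in animal 3 at 199 against 105 to 110.3 and Fga in animal 3 at 692 against 1175 to 1228. Also in cachexia were Hsd3b5 in animal 4 at 3.39 against 0.672 to 0.749, Ms4a8a in animal 3 at 35.6 against 16.7 to 19.6 and Sox5 in animal 4 at 814 against 751 to 761. The cachexia group further held Vwf in animal 1 at 17.98 against 13.7 to 14.3. In the MC38 PBS group these were Alas2 in animal 2 at 20.1 against 14.4 to 15.3, Bach2 in animal 3 at 184 against 155 and Il1r1 in animal 3 at 1964 against 386 to 613. Also in MC38 PBS were Nfkb1 in animal 4 at 129 against 144 to 146, Stab2 in animal 2 at 414 against 536 to 551 and Thbs1 in animal 4 at 0.724 against 0.474 to 0.492. In the MC38 group these were Ccnb2 in animal 3 at 12.7 against 4.50 to 4.66, Ghr in animal 2 at 12096 against 8585 to 9164 and Nrep in animal 2 at 300.0 against 13.1 to 35.5. Also in MC38 were Nrp1 in animal 2 at 934 against 189 to 246, Onecut2 in animal 2 at 551 against 331 to 353 and Pdgfra in animal 1 at 7.96 against 5.80 to 6.15. The MC38 group further held Serpina9 in animal 3 at 3.01 against 11.3 to 12.3, Tox in animal 1 at 1084 against 307 to 439 and Ugt2b38 in animal 2 at 69.3 against 0.724 to 1.81.

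In 442 non-hepatocyte genes (365 higher and 77 lower) the 8025 and MC38 effects differed by the test of the difference itself. For Osmr the difference of effects itself differed between the fractions, by -2.13 on the log2 scale (whole liver minus hepatocyte nuclei, with the animal as a block).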

How the results depend on the processing

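The count of differences was 1042 higher and 819 lower as reported. It was 656 and 468 in the fit of only the 16 libraries and ranged from 814 to 1354 higher and 557 to 1033 lower when each animal was left out. For the non-hepatocyte genes these were 228 higher in the fit of the 16 libraries, 282 to 382 higher and 61 to 83 lower without single animals, 408 and 89 with DESeq2, 376 and 73 with RLE scaling, 336 and 68 without the filter, 517 and 90 at a 2-fold definition and 394 and 78 with the definition taken from C57BL/6N PBS animals. MC38 against PBS, with 0 calls as reported, gave 13 higher and 1 lower with DESeq2, 1 in the fit of the 16 libraries and 0 to 10 without single animals (10 without MC38 animal 1). The PBS groups gave 18 higher and 19 lower without the filter, 1 and 0 in the fit of the 16 libraries, and 1 to 484 higher and 0 to 492 lower without single animals, with 6 and 0 without 8025 PBS animal 1, 5 and 4 without 8025 PBS animal 4, 2 and 2 without MC38 PBS animal 1, and 1 and 0 without MC38 PBS animals 3 or 4. In hepatocyte nuclei the range was 357 to 576 higher and 266 to 504 lower, lowest without 8025 PBS animal 2. The causes were not tested.

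With the replicate number as a block, 864 genes were higher and 556 lower, 312 and 60 among non-hepatocyte genes, and 438 and 325 in hepatocyte nuclei. Numbers are shared between groups, but the deviations of same-numbered animals correlated by -0.24 to 0.11 within cohorts, with 1 of 8 best matched by its own number, so the numbers do not pair animals. Both fractions of an animal correlated by 0.37 to 0.85, and the block by animal gave 4 higher and 7 lower genes in their comparison.

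Of the values of single named genes under the alternatives, 2014 kept direction and call, 115 lost the call, 24 gained it and none reversed. Of 158 called list members 91 kept their call in all alternatives run and 67 lost it in at least 1. Genes with few counts, such as Ly6g and Cd3d, could not be compared at this depth.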

Other observations

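Genes that hepatocytes themselves express differed as well. Of 33 acute phase genes, most of which encode plasma proteins that the liver secretes in inflammation, 17 were called higher under 8025 and none lower, with a median of 1.89. Itih3, an inter-alpha-trypsin inhibitor heavy chain, was at 109, 183, 287 and 214 CPM in 8025 PBS, 2937, 2543, 1274 and 4153 in cachexia, 224, 403, 265 and 349.99 in MC38 PBS and 520.2, 371, 499.97 and 594 in MC38 animals. All cachexia animals were above the other 12 (3.10 ± 0.52; adjusted p = 0.000156). Haptoglobin (Hp) differed by 2.42 ± 0.45, the lipopolysaccharide-binding protein gene Lbp by 3.48 ± 0.64, and Orm1 (orosomucoid) by 2.63 ± 0.52, with adjusted p from 0.000482 to 0.000893. The serum amyloid genes Saa1 (4.27 ± 1.03) and Saa2 (5.48 ± 1.57) are near copies that may share reads; Saa2 lost its call without MC38 PBS animal 2 (adjusted p = 0.0575). The MC38 animals lay above their PBS group in Saa1 without overlap, at 1.17 to 8.41 against 0.345 to 0.738 CPM, with an MC38 estimate of 2.37 ± 0.74 that was not called (adjusted p = 0.4902).

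Of 25 genes tied to growth hormone and metabolism 2 were higher (Igfbp1 and Pck1) and 7 lower (Hsd3b5, Cyp4a12a, Slco1a1, Scd1, Mup21, Me1 and Ghr), with a median of -1.03. Hsd3b5, a male-biased steroid dehydrogenase, was at 0.672 to 3.39 CPM in cachexia and 60.4 to 606 elsewhere (-8.23 ± 0.99; adjusted p = 2.97e-06). Ghr, the growth hormone receptor, was at 2043 to 5241 against 6754 to 16074 CPM (-1.66 ± 0.34; adjusted p = 0.00139). The lipogenic enzyme gene Scd1 differed by -4.09 ± 0.68 and the transporter Slco1a1 by -4.62 ± 0.72; Cyp4a12a (-5.60 ± 0.80) has a close copy. Pck1, a gluconeogenic enzyme and the only called member of 20 hepatocyte markers (median -0.24), also differed between both PBS groups (-1.85 ± 0.35; adjusted p = 0.0232), and its call of 1.48 ± 0.49 was lost in 9 of 22 alternatives, among them without 8025 PBS animals 1 or 2, cachexia animals 1 or 4, MC38 PBS animals 2 or 3, or MC38 animals 2 or 3 (highest adjusted p 0.0929).

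Of 20 circadian clock genes 3 were higher (Arntl, Npas2 and Nfil3) and 6 lower (Bhlhe41, Wee1, Usp2, Tef, Dbp and Nr1d2), with a median of -0.68, in livers taken at a single time of day. Arntl, the positive arm of the clock loop, was at 41.1 to 74.5 CPM in cachexia and 8.19 to 13.5 elsewhere (2.33 ± 0.55; adjusted p = 0.00479), and Bhlhe41, a repressor, differed by -2.97 ± 0.62. The calls of Dbp and Nr1d2 were lost in 7 and 17 of 22 alternatives. Of 39 cell cycle genes 1 was higher (Aurkb, 3.89 ± 1.03, which passed the filter only because of the cachexia animals and is given as a description; its estimate was 5.19 without 8025 PBS animal 4, where 2 genes were higher, and 4.78 without MC38 animal 3) and none lower, with a median of 0.46. Alas2, the erythroid enzyme of haem synthesis, was at 1.57 to 4.25 against 11.5 to 32.01 CPM (-2.91 ± 0.38; adjusted p = 9.53e-06).

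Among properly named genes averaging 5 CPM or more, those with the largest called differences were Igdcc4 (8.11 ± 1.099), the metallothionein Mt2 (6.25 ± 0.98), Orm3 (5.49 ± 0.94) and Saa2 at the upper end and Ugt2b38 (-10.05 ± 1.97), Hsd3b5, Serpina9 (-7.50 ± 1.44) and Nrep (-6.26 ± 1.26) at the lower. Igdcc4, a cell surface protein of the immunoglobulin family, was at 78.3, 137, 39.2 and 114 CPM in cachexia and 0.142 to 0.702 elsewhere. Ugt2b38 belongs to a family with close copies, and its level in MC38 animal 2 was 69.3 CPM; Nrep was at 300.02 there. Without that animal the difference was -6.28 for Ugt2b38 and -4.26 for Nrep (adjusted p = 0.00937 and 0.00848). Without 8025 PBS animal 2 it was -8.93 for Ugt2b38, -5.66 for Nrep and -6.42 for Serpina9, without MC38 PBS animal 2 -6.92 for Nrep and -8.16 for Serpina9, and without cachexia animal 3 -6.76 for Serpina9 and -6.67 for Cyp4a12a. Hsd3b5 ranged from -9.03 without cachexia animal 4 to -7.50 without MC38 animal 2. Without MC38 PBS animal 3 the values of Mt2 and Orm3 were 5.51 and 4.76, and that of Igdcc4 was 8.70 without MC38 animal 3 and that of Saa2 6.07 without MC38 animal 4.

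With the animal as a block over both fractions, the difference of effects was larger in whole liver than in hepatocyte nuclei for Dnah11 (1.92 ± 0.32), Nmnat2 (1.68 ± 0.31), Rbfox1 (1.37 ± 0.28) and Plekhb2 (0.95 ± 0.19). It was smaller for Tox2 (-2.08 ± 0.41), D130040H23Rik (-2.03 ± 0.30), Sobp (-1.98 ± 0.34), Sdpr (-1.59 ± 0.31), Ica1 (-1.33 ± 0.27) and Pdgfd (-1.22 ± 0.23), beside Osmr. Adjusted p ran from 0.00115 to 0.0341.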
